A study of Mus musculus with 12 samples.

Results

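The comparison described here sets the liver of arsenite-line F2 males that was labelled normal against the liver labelled non-tumour in control-line F2 males. Its members were chosen by their titles, 3 arrays of each kind, and make up 6 of the 12 arrays of the series. All animals were C3H/HeN males aged about 74 weeks. In the arsenite line, sodium arsenite at 85 ppm was put in the drinking water of the pregnant F0 grandmothers between days 8 and 18 of gestation, and in the control line they had tap water alone. No arsenite was given to F1 or F2 mice, and the F2 males came from F1 males and females mated at 10 weeks of age. The other arrays hold 3 non-tumour and 3 tumour samples of the arsenite line, and control-line normal liver was not analysed here. The groups differ in several ways at once. They differ in the exposure of the grandmother, the class of the tissue (normal against non-tumour), the glass slide and the row on the slide. The 3 arsenite normal arrays lay together in row 2 of a slide of their own. The 3 control non-tumour arrays lay in row 1 of a slide shared with arsenite non-tumour samples, which lay in row 2. These differences cannot be told apart in this design. The labels do not say whether the 3 samples of a group came from separate animals, so the tests measure only the spread between these samples.

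The male mouse liver is driven by pulses of growth hormone. The hormone binds its receptor, Ghr, the receptor activates the kinase Jak2, and the transcription factor Stat5b then switches on growth-promoting genes such as Igf1 together with the feedback inhibitors Cish and Socs2, while it represses the gene of the transcriptional repressor Bcl6. Inorganic arsenic is methylated in the liver by As3mt with S-adenosylmethionine as the methyl donor, the same donor that the DNA methyltransferases use, and metallothioneins bind metals. C3H males are prone to liver tumours late in life.

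The immediate early gene Egr1 and the repressor gene Bcl6 read higher in every arsenite normal array than in any control non-tumour array, by 8.69-fold and 4.36-fold in the means. The growth hormone feedback genes Cish and Socs2 and the fatty acid hydroxylase gene Cyp4a14 read lower in every arsenite normal array. Among genes well above background on all 6 arrays and without overlap between the groups, these 5 had the largest differences. None of these differences passed the test: limma called 0 of 16817 genes at a Benjamini-Hochberg adjusted p under 0.05 (0% of genes), and the smallest adjusted p was 0.185, shared by 5 genes. At an unadjusted p under 0.05 there were 1359 genes (8.08%), 545 higher (3.24%) and 814 lower (4.84%) in arsenite normal liver. Scaling each array to the probes detected on all 9 arrays outside tumours turned that split to 686 higher and 652 lower. Quantile scaling gave 539 higher and 922 lower, and median scaling 270 and 599, so the size of the lean varied with the scaling. The count of calls was also 0 in the fit of all 12 arrays and 2 in a fit of the 6 arrays alone. What follows therefore gives values and says whether the arrays of both groups overlap.

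Levels are log2 of the scanner's processed signal minus the array's own 75th percentile, so 0 is that percentile and 1 unit is a 2-fold step. Only genes with a probe that the scanner software marked as well above background in every array of either group were tested, and a difference is always arsenite normal minus control non-tumour, with its standard error. The arrays of both groups did not overlap for 2342 genes (13.9%), 904 higher (5.38%) and 1438 lower (8.55%) in arsenite normal liver. With a difference of at least 1 log2 unit as well, 41 genes were higher (0.244%) and 37 lower (0.22%), and 28 of these carry only predicted or clone names. The median difference over all genes was -0.02, and 5% to 95% of genes spanned -0.36 to 0.38. The 95% interval of the difference lay within -1 to 1 for 15395 genes (91.5%), with a median half-width of 0.30.

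**Figure D1:**
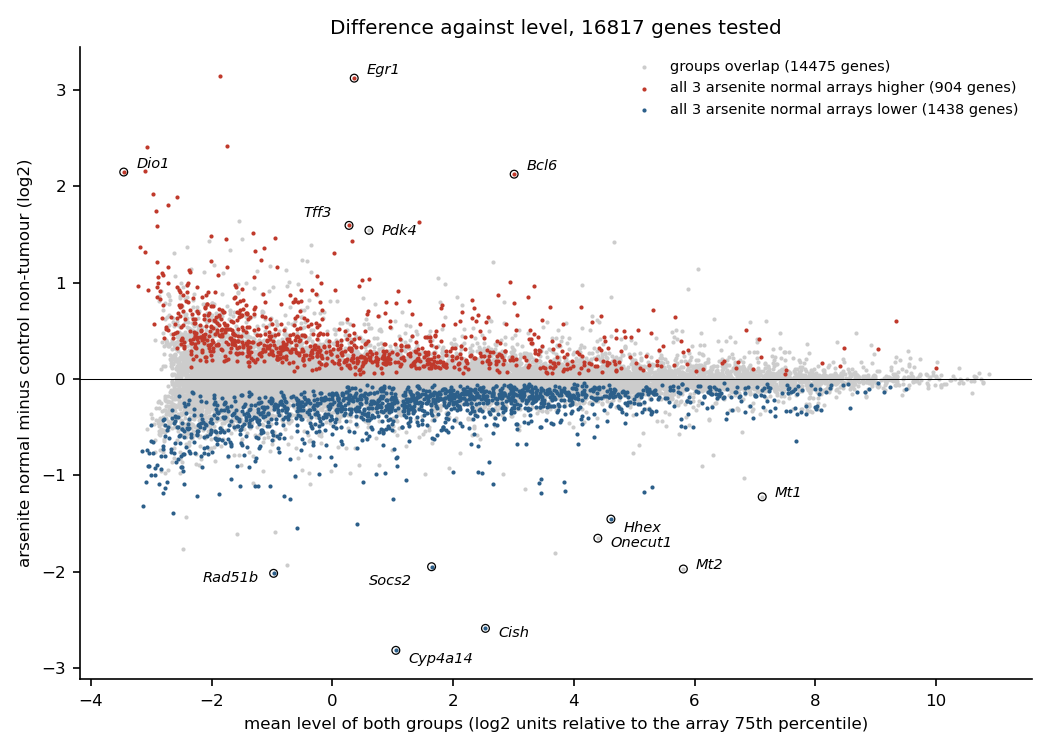
Difference between the groups (vertical axis, log2, arsenite normal minus control non-tumour) against the mean level of both groups (horizontal axis, log2 relative to the array's 75th percentile), with 1 point per gene tested. Grey points are genes whose arrays overlap, and 904 genes lie in red (all 3 arsenite normal arrays higher) and 1438 in blue (all 3 lower). Egr1, at 3.12, and Cyp4a14, at -2.81, are the outermost of the genes named on the plot.

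Between 40.5% and 45.3% of spots were well above background on the arsenite normal arrays and between 42.5% and 44.0% on the control non-tumour arrays. Correlations over the genes tested were 0.991 to 0.994 among arsenite normal arrays, 0.990 to 0.994 among control non-tumour arrays and 0.986 to 0.994 between the groups. Albumin, the main plasma protein of hepatocytes, stood at 10.76 to 11.08 in arsenite normal and 10.79 to 10.95 in control non-tumour liver. The fetal and tumour marker Afp was well above background on 2 arsenite normal arrays and 1 control array and was not tested. In whole liver, fewer cells of a type and less RNA per cell cannot be told apart.

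Bright patches on the slides moved with the groups, and so with the row on the slide. A spot was counted as bright when it exceeded its median over the 9 arrays outside tumours by more than 2 log2 units. The arsenite normal arrays held 431, 502 and 380 such spots, and between 77.7% and 80.3% of them had at least 2 other bright spots within 5 spots on the same array. The control non-tumour arrays held 170, 36 and 56, of which 37.6%, 0% and 16.1% had such neighbours. Spots within 5 positions of a cluster made up 9.43% or more of each arsenite normal array, 5.94% to 8.42% of the arsenite non-tumour arrays and 0% to 2.18% of the control arrays. The probe of 4684 of the 16817 genes (27.9%) lay in a patch on some arsenite normal array, as against 17 of the 41 genes at least 1 log2 unit higher (41.5%) and 9 of the 37 lower (24.3%). The part of patches in single differences was not tested. Such patches held the spots of Tff3, Plxnb1, Kcnk1, Cyp4a10, Cyp4a14, Etfdh, Thrsp, Oasl1, Mt1, Cdh1, Chac1 and Sdf2l1, beside those named with their values below. Leaving out every probe in a patch on any of the 9 arrays left 10542 genes and 0 calls, a setting chosen after seeing the data.

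**Figure D2:**
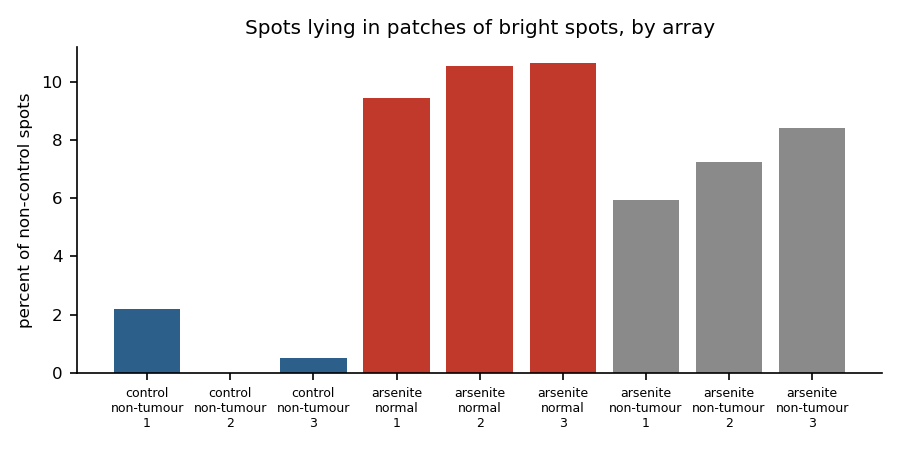
Percent of non-control spots (vertical axis) that lie within 5 spots of a cluster of bright spots, 1 bar per array. The 3 control non-tumour arrays (blue) reach 2.18% at most, the 3 arsenite normal arrays (red) lie at 9.43% or more, and the 3 arsenite non-tumour arrays (grey) lie between.

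All 18 genes of the growth hormone and IGF list were tested, with 0 called. In 3 of them (Cish, Socs2 and Igf1; 16.7%, against 8.55% of all genes) every arsenite normal array was lower, and in 1 (Bcl6; 5.56%, against 5.38%) every one was higher. The list's median difference was -0.10.

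Cish and Bcl6 have RefSeq promoter entries (GRCm38.p6, 250 bases before to 50 after the gene start), shown because both genes are known Stat5 targets and differed in opposite directions. Capitals mark TTCNNNGAA, the core that Stat5 dimers recognise. The motif is its own reverse complement, so a single search covers both strands. At least 1 match was present in 8.3% of 32851 promoters of this length, at least 2 in 0.457% and at least 3 in 0.0335%. A match describes the letters only.
Cish, chr9:107296409-107296708, plus strand: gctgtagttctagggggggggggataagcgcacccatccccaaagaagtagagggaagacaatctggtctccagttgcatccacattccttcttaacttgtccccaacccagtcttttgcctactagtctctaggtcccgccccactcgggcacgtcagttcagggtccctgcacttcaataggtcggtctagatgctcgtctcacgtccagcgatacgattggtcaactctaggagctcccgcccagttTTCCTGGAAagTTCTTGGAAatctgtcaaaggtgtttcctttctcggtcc
Bcl6, chr16:23981234-23981533, minus strand: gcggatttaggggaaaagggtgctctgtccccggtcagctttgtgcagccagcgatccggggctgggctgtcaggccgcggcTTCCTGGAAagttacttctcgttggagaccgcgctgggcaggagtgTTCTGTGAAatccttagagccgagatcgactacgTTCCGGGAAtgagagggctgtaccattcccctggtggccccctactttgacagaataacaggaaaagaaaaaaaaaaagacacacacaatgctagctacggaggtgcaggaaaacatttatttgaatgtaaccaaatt
The Cish window held 2 matches, whose first bases are bases 1 and 12 of the gene. The Bcl6 window held 3, with first bases at positions -168, -122 and -88 from the start. The window at the other listed Bcl6 start held 1, at position -118. Of the 18 list genes, 16 had an entry, and 3 of these (Bcl6, Cish and Igfals) held a match. Socs2 had no entry.

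Cish, which blocks the hormone receptor's signal, read 2.12, 0.76 and 0.85 in arsenite normal liver and 4.46, 3.08 and 3.95 in control non-tumour liver (probe at chr9:107204196-107204255 on mm9). The highest arsenite normal array lay below the lowest control array. The difference was -2.59 ± 0.73, a 6.01-fold lower mean, with a 95% interval of -4.24 to -0.93 and a limma adjusted p of 0.425. Its probe lay in no bright patch.

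Socs2, a feedback inhibitor that targets the receptor for degradation, read -0.25, 1.35 and 0.91 in arsenite normal liver against 2.13, 1.98 and 3.74 in control liver. Again no array overlapped, and the difference was -1.95 ± 0.54 (adjusted p 0.425 by limma). The 3 tested probes of the gene gave differences between -1.95 and -1.82. The probe used lay in patches on arsenite normal arrays 2 and 3, and without probes in patches another probe stood for the gene and gave -1.82.

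Bcl6, a transcriptional repressor that is itself held down by growth hormone, ran the other way. It read 4.48, 4.16 and 3.58 in arsenite normal liver and 1.88, 1.07 and 2.90 in control liver (probe at chr16:23965160-23965219 on mm9), with no overlap. The difference was 2.12 ± 0.83 (4.36-fold, 95% interval 0.23 to 4.01, limma adjusted p 0.589), and the probe lay in no patch.

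Onecut1, a liver transcription factor responsive to growth hormone, overlapped between the groups. It read 1.96, 4.74 and 4.02 in arsenite normal liver and 5.24, 4.28 and 6.15 in control liver. The first arsenite normal array was the lowest of all, and the difference moved from -1.65 to -0.85 without it.

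Other genes of the pathway differed less. Igf1, the circulating growth factor, read 7.50, 7.51 and 7.49 against 7.56, 7.65 and 7.62. These arrays do not overlap, yet the difference was only -0.11 ± 0.07 (95% interval -0.28 to 0.06). Ghr differed by 0.12 ± 0.09 and Stat5b by -0.29 ± 0.19, both with overlapping arrays. For Ghr, Igf1 and Stat5b (95% interval -0.73 to 0.15) the interval excludes a 2-fold difference in either direction.

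The arsenite non-tumour arrays share the exposure and the row on the slide with arsenite normal liver, and the tissue class and slide with control liver. They varied widely among themselves. Cish read 2.39, 3.11 and 0.18 there and Bcl6 4.66, 1.40 and 4.50. The means of that group lay nearer to arsenite normal liver for Cish (1.90, against 1.24 in arsenite normal and 3.83 in control liver) and for Bcl6 (3.52, against 4.07 and 1.95). They did so also for Hhex (4.25, against 3.89 and 5.34), while for Socs2 the mean was 1.74, against 0.67 and 2.62. The array with the highest Cish of the 3 had the lowest Bcl6. Both genes thus spread over about as many units within that group as separate the means of the groups compared. Over all 41 genes at least 1 log2 unit higher, the arsenite non-tumour mean lay nearer to arsenite normal for 13, and over the 37 lower for 18 (of all non-overlapping genes, 37.5% of the higher and 47.3% of the lower).

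**Figure D3:**
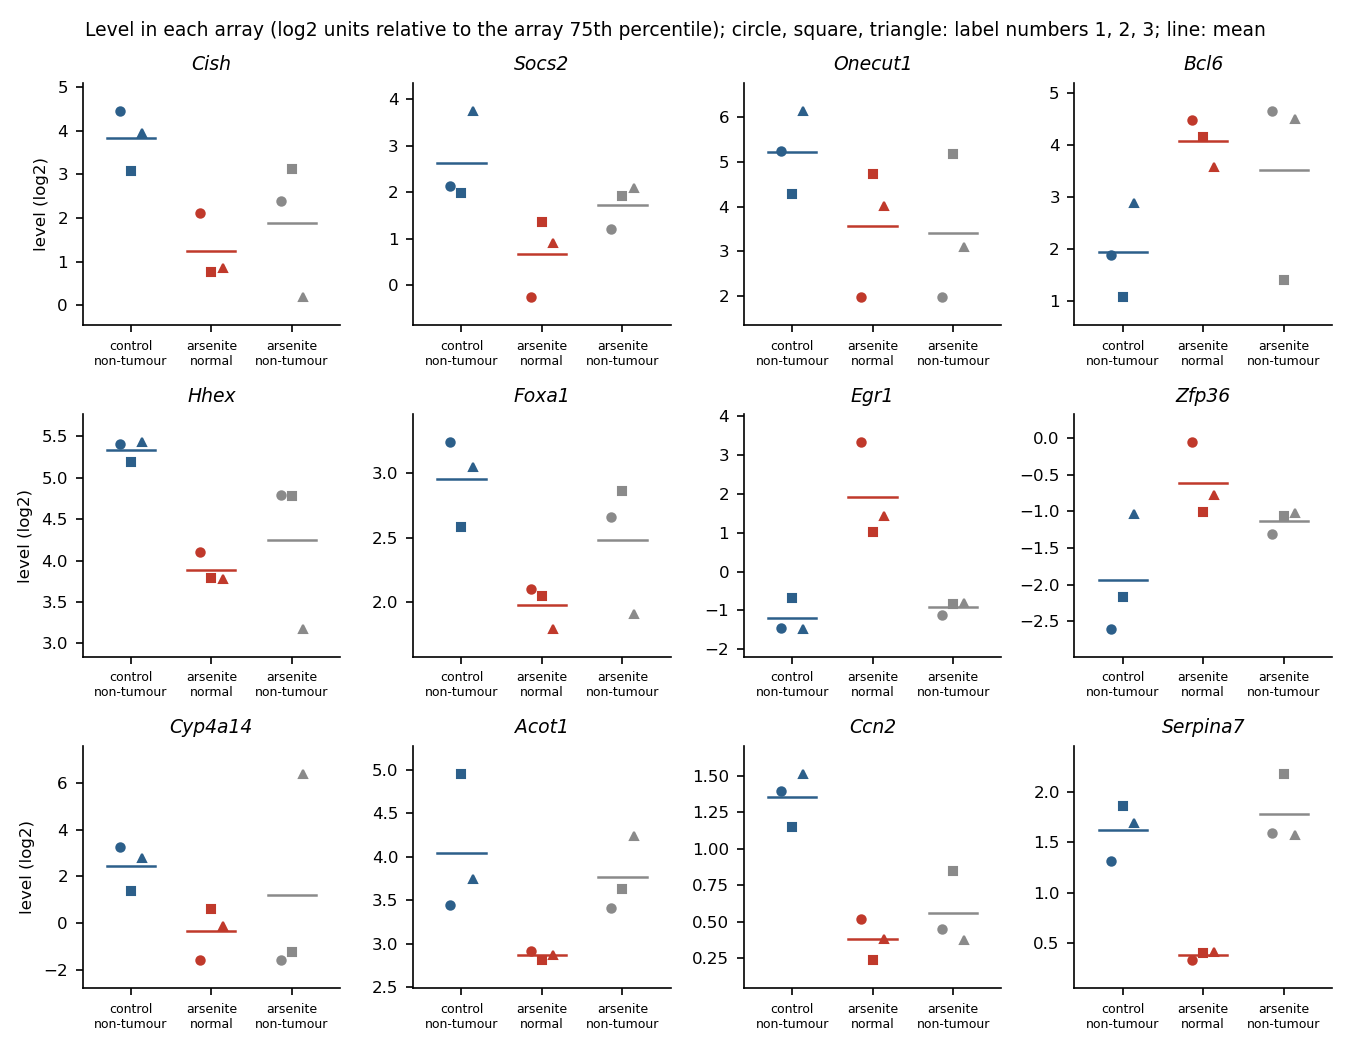
Level of 12 genes (vertical axes, log2 relative to the array's 75th percentile) in each array of 3 groups, with the group mean as a line and the label numbers as symbols. Cish, Socs2, Hhex, Foxa1, Cyp4a14, Acot1, Ccn2 and Serpina7 are lower, and Bcl6, Egr1 and Zfp36 higher, in all 3 arsenite normal arrays than in all 3 control arrays, while Onecut1 overlaps. The arsenite non-tumour arrays (grey) spread widely for Cish, Onecut1, Bcl6 and Cyp4a14.

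Of the 18 hepatocyte identity genes tested, 0 were called, 2 were lower without overlap (Foxa1 and Foxa2; 11.1%, near the 8.55% of all genes) and 0 higher, and the list's median was 0.01. Foxa1, a pioneer factor that opens chromatin, read 2.10, 2.05 and 1.80 in arsenite normal liver and 3.24, 2.58 and 3.05 in control liver, a difference of -0.97 ± 0.26 (limma adjusted p 0.404). Its relative Foxa2 read 4.24, 3.95 and 3.88 against 4.41, 4.60 and 4.87, a difference of -0.60 ± 0.22. Hhex, a homeobox gene needed for liver development that is not in that list, read 4.10, 3.78 and 3.77 against 5.41, 5.19 and 5.43. No arrays overlapped, and the difference was -1.45 ± 0.38 (2.74-fold, adjusted p 0.404 by limma, and 0.070 in the fit of the 6 arrays alone). The arsenite non-tumour arrays read 4.79, 4.77 and 3.18 for Hhex, and that spread enters the standard error of the fit of 9 arrays. For 16 of the 18 identity genes the interval lay within -1 to 1.

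Immediate early genes, which cells switch on within minutes of a stimulus, included the largest difference among genes well above background in both groups. Of 30 tested, 0 were called, 6 were higher without overlap (20%, against 5.38% of all genes; among them Klf6 at 0.21) and 1 lower (3.33%, against 8.55%). Of the differences 18 were above 0 and 12 below, and the median was 0.08. Egr1, a zinc-finger activator, read 3.31, 1.01 and 1.43 in arsenite normal liver and -1.44, -0.68 and -1.47 in control liver. No control array came near the lowest arsenite normal array, and the difference was 3.12 ± 0.52 (8.69-fold, 95% interval 1.93 to 4.30, limma adjusted p 0.289). Its spot lay in a bright patch on arsenite normal array 1, and without that array the difference was 2.42. The tumours of the arsenite line averaged 5.05 for Egr1 and the arsenite non-tumour arrays -0.92.

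Zfp36, which destabilises cytokine messages, read -0.06, -1.01 and -0.78 against -2.61, -2.17 and -1.04, a difference of 1.32 ± 0.38. The growth arrest gene Gadd45a read 0.19, 0.59 and 0.03 against -1.02, -1.03 and -0.33, a difference of 1.06 ± 0.23. Junb (0.95 ± 0.28) and the antiproliferative gene Btg2 (0.72 ± 0.23) were also higher without overlap. The spots of Zfp36 and Junb lay in a patch on arsenite normal array 2, and that of Gadd45a on array 3. Ccn2, a matrix protein and Yap target, was the 1 member of the list that was lower without overlap. It read 0.52, 0.24 and 0.38 in arsenite normal liver and 1.40, 1.15 and 1.51 in control liver, a difference of -0.97 ± 0.15 (limma adjusted p 0.255), and the arsenite non-tumour arrays read 0.45, 0.85 and 0.38.

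Of 31 fatty acid oxidation and ketogenesis genes tested, 0 were called, 10 were lower without overlap (32.3%, against 8.55% of all genes) and 0 higher, 26 had a difference below 0, and the median was -0.16. Cyp4a14, a fatty acid omega-hydroxylase induced through Ppara, read -1.57, 0.61 and -0.12 against 3.24, 1.36 and 2.78. The difference was -2.81 ± 1.86 (adjusted p 0.764 by limma, and 0.389 in the fit of the 6 arrays). In the arsenite non-tumour group, which enters the standard error, array 3 read 6.38 and the others -1.60 and -1.22. Its relatives, whose probes may share signal, were also lower without overlap. Cyp4a10 differed by -1.12 ± 0.92 and Cyp4a31 by -1.17 ± 0.93. Acot1, a cytosolic acyl-CoA thioesterase, read 2.92, 2.81 and 2.87 against 3.44, 4.95 and 3.75, a difference of -1.18 ± 0.36. The carnitine-acylcarnitine carrier Slc25a20 differed by -0.32 ± 0.09 and the electron transfer enzyme Etfdh by -0.18 ± 0.08. The other 4 lower genes (Acaa1b, Acadl, Ehhadh and Pex11a) differed by -0.23 to -0.14. Pdk4, which restrains pyruvate oxidation, differed by 1.54 ± 0.54, but control array 2 (0.84) overlapped the lowest arsenite normal array (0.73). It lay in a patch on arsenite normal array 1, the highest of the group at 2.48.

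Of 25 cholesterol synthesis genes, 0 were called, 1 (Insig1, a sterol sensor partner; 4%, against 5.38% of all genes) was higher without overlap and 0 lower, 23 had a difference above 0 and the median was 0.28. Insig1 read 4.09, 4.47 and 3.41 against 3.32, 3.14 and 3.25, a difference of 0.75 ± 0.25, and its spot lay in a patch on arsenite normal array 1. Mvd, an enzyme of the mevalonate pathway, differed by 0.98 ± 0.70, and control array 1 (2.74) was above 2 of the 3 arsenite normal arrays. Of 19 lipogenesis genes, 0 were called, 0 were higher and 1 lower without overlap (5.26%, against 8.55%), 13 had a difference above 0 and the median was 0.22. Thrsp, a lipogenic coregulator, led at 1.14 ± 0.69 with overlap.

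**Figure D4:**
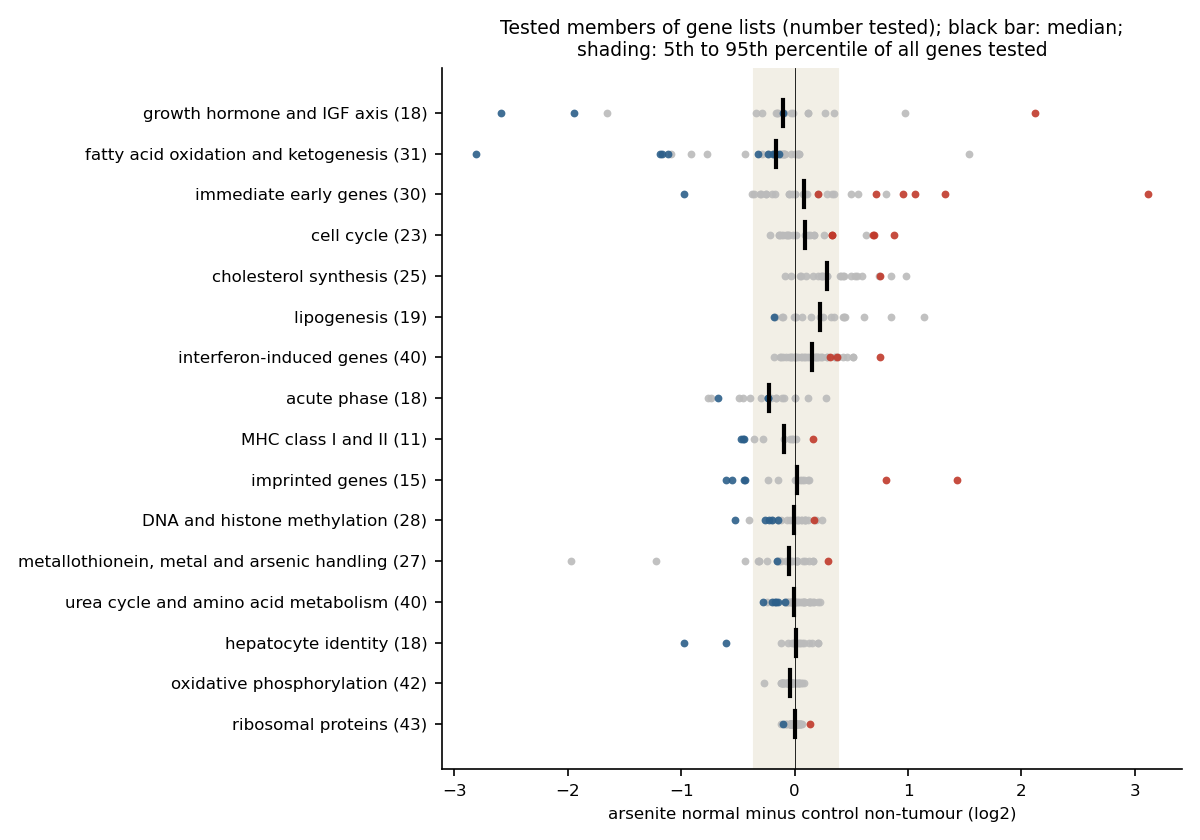
Difference of each tested member (horizontal axis, log2, arsenite normal minus control non-tumour) for 16 gene lists (rows, with the number tested), with the list's median as a black bar. Red points have all 3 arsenite normal arrays higher and blue points all 3 lower, and the shaded band holds 5% to 95% of all genes tested. The growth hormone list runs from -2.59 to 2.12, while the 42 oxidative phosphorylation and 43 ribosomal protein genes stay close to 0.

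Of 23 cell cycle genes, 0 were called, 5 were higher without overlap (21.7%, against 5.38% of all genes) and 0 lower. Of the differences 13 were above 0 and 10 below, with a median of 0.09 that was -0.00068 without probes in bright patches. The proliferation marker Mki67 differed by 0.01 ± 0.22, with a sign that turned with the scaling, and the replication helicase gene Mcm4 by -0.21 ± 0.21. Birc5, an inhibitor of apoptosis needed in mitosis, read -0.13, -0.30 and -0.37 against -1.69, -1.08 and -0.67, a difference of 0.88 ± 0.26. Cyclin D1, Ccnd1, read 0.79, 1.16 and 0.90 against -0.01, 0.27 and 0.47, a difference of 0.70 ± 0.21. Cdc20 differed by 0.69 ± 0.21, Rrm2 by 0.33 ± 0.12 and Cdca8 by 0.33 ± 0.15. Birc5 lay in a patch on arsenite normal array 3 and Ccnd1 on array 2. Birc5, Cdc20 and Ccnd1 averaged 2.62, 1.98 and 2.89 in the tumours, above either group compared here.

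The sulfotransferase gene Chst13 read -0.23, -0.19 and -0.15 in arsenite normal liver and -0.82, -0.89 and -0.98 in control liver. Its difference of 0.71 ± 0.10 and that of the F-box gene Fbxw27, 0.84 ± 0.12, shared the smallest limma adjusted p, 0.185. A second tested probe of Chst13 differed by 0.09, so its probes disagree. Fbxw27 was well above background on 2 of the 3 control arrays, and its spot lay in a patch on arsenite normal array 2. The receptor tyrosine kinase Epha2 read 2.05, 2.22 and 2.35 against 1.56, 1.23 and 1.50, a difference of 0.77 ± 0.12 (limma adjusted p 0.255). Wfdc12, a small secreted protease inhibitor, differed by 1.35 ± 0.20 and averaged 2.09 in the tumours. Serpina7, the thyroxine-binding globulin, was lower without overlap. It read 0.33, 0.40 and 0.41 in arsenite normal liver and 1.31, 1.86 and 1.69 in control liver, and the difference was -1.24 ± 0.19 (adjusted p 0.255 by limma). The arsenite non-tumour arrays read 1.59, 2.18 and 1.57 for Serpina7, within and above the control range. Dio1, the liver enzyme that activates thyroid hormone, read -2.25, -2.23 and -2.67 against -4.32, -4.51 and -4.76. It was not well above background on any control array, so arsenite normal liver was at least 1.5-fold higher, computed against the dimmest signal well above background on each control array. It was thus tested only through the group where it is high, and its control readings lay below that dimmest signal. It was 1 of the 2 genes called in the fit of the 6 arrays alone, where the limma adjusted p was 0.045. That call therefore rests on control readings not well above background.

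Further large differences lay among low or variable genes. Tff3, a mucosal trefoil peptide, read 1.31, 0.99 and 0.91 against -0.41, -0.92 and -0.23 (1.59 ± 0.77) and averaged 8.12 in the tumours. The GTPase gene Nuggc read 2.23, 1.83 and 2.68 against 0.32, -0.10 and 1.64 (1.63 ± 0.82) but averaged -2.11 in the tumours. Of the 41 non-overlapping genes at least 1 log2 unit higher, the tumour mean lay above arsenite normal for 11 (26.8%). Of the 37 lower, it lay below arsenite normal for 17 (45.9%). Over all non-overlapping genes, the tumour mean lay beyond arsenite normal in the same direction for 26.5% of the higher and 58.4% of the lower. Plxnb1, a semaphorin receptor well above background on 2 of the control arrays, differed by 1.51 ± 0.45 and the drug-metabolising enzyme Cyp2c55 by 1.03 ± 0.17. Capn8 and Ces4a were well above background on 1 control array only, and Kcnk1, Serpina5 and Zim3 on none. On the lower side, Rad51b, a recombination gene, read -2.71, -1.55 and -1.69 against 1.07, -0.29 and -0.67 (-2.02 ± 0.64). Fmo2 differed by -1.24 ± 0.52, the mitochondrial carrier Slc25a30 by -1.21 ± 0.40, the chromatin gene Arid5b by -1.16 ± 0.34 and the hypoxia-responsive gene Ankrd37 by -1.19 ± 0.33. The lipid droplet protein Cidec differed by -1.09 ± 0.36. Rad51b, Ankrd37 and Cidec were well above background on 2 of the 3 arsenite normal arrays, so they were tested only through the group where they are high. The adenosine receptor Adora2a was well above background on no arsenite normal array, and its mean was 2.32-fold lower there (-1.22 ± 0.23).

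Genes that handle metals and arsenic gave few separations. Of 27 tested, 0 were called, 1 (Slc39a4, a zinc importer, 0.30 ± 0.13) was higher and 1 (Ahcy, which clears the product of methylation reactions, -0.15 ± 0.09) lower without overlap (3.7% each, against 5.38% and 8.55% of all genes), and the median was -0.05. As3mt read 0.50, 0.74 and 0.71 in arsenite normal liver and 0.63, 0.45 and 0.65 in control liver, a difference of 0.08 ± 0.13. Its 95% interval of -0.23 to 0.38 excludes a 2-fold difference. The metallothioneins Mt1 and Mt2 varied widely within groups, with SDs pooled over both groups of 1.85 and 2.14, against a median of 0.15 over genes well above background on all 6 arrays. Mt2 read 3.45, 5.63 and 5.41 against 8.69, 8.11 and 3.60. Control array 3 was thus near the lowest arsenite normal array, and the difference of -1.97 ± 1.28 had an interval of -4.89 to 0.95. Mt1 read 5.23, 7.83 and 6.47 against 9.60, 8.39 and 5.20, a difference of -1.22 ± 1.10. In both genes control array 3 was low and control arrays 1 and 2 were high.

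The promoters of Mt1 and Mt2 are shown because both genes were high and low in the same control arrays. They lie side by side in the same orientation. Capitals mark the metal response element core, TGCACNC or TGCGCNC, searched on both strands (RefSeq, GRCm38.p6). At least 3 matches were present in 1.97% of the 32851 promoters and at least 4 in 0.517%.
Mt1, chr8:94178839-94179138, plus strand: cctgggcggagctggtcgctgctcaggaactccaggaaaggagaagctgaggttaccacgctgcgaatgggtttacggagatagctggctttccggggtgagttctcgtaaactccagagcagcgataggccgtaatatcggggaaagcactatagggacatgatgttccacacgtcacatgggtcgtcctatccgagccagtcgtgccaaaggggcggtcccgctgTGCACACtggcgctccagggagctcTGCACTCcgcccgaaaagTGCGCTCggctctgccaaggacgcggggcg
Mt2, chr8:94172368-94172667, plus strand: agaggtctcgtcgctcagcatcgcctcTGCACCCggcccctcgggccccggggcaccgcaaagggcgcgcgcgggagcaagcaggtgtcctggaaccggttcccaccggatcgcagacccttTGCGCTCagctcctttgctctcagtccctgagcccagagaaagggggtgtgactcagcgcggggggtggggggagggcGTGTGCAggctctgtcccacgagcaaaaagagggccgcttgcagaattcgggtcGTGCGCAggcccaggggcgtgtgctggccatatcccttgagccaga
The Mt1 window held 3 matches and the Mt2 window 4.

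Of 28 DNA and histone methylation genes tested, 0 were called, 1 was higher (3.57%, against 5.38% of all genes) and 5 lower (17.9%, against 8.55%) without overlap, the median was -0.01 and all 28 intervals lay within -1 to 1. The maintenance methyltransferase Dnmt1 read -1.61, -1.53 and -1.59 in arsenite normal liver and -1.38, -1.30 and -1.26 in control liver. The arrays did not overlap, and the difference was -0.26 ± 0.09 (adjusted p 0.552 by limma), with the spot in a patch on arsenite normal array 1. The de novo methyltransferases Dnmt3a (-0.01 ± 0.23) and Dnmt3b (-0.00 ± 0.34) had differences near 0 whose sign turned with the scaling. Tdg, a glycosylase of active demethylation, differed by -0.52 ± 0.19 and Ezh2, which methylates histone H3, by -0.20 ± 0.10.

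**Figure D5:**
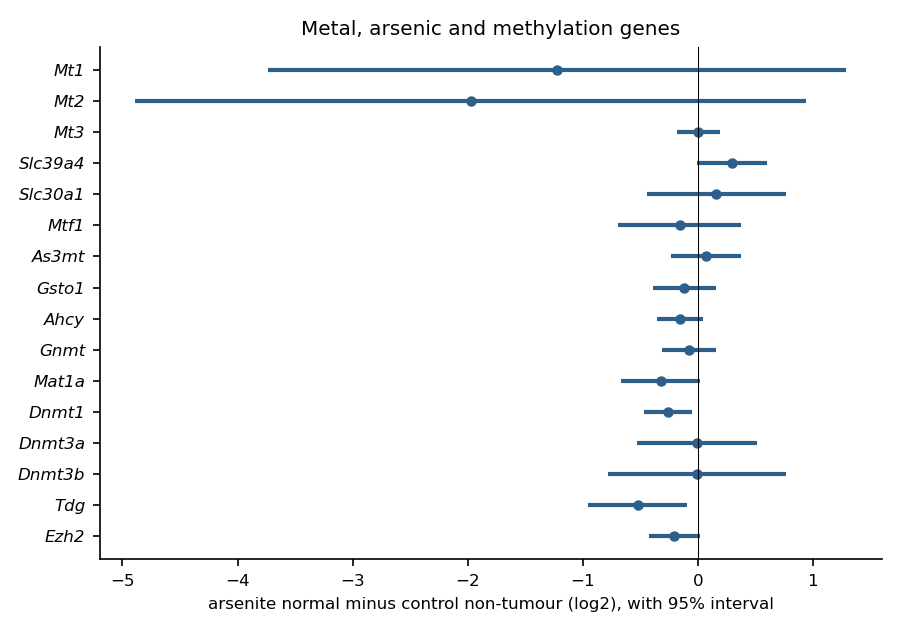
Difference (point) and 95% interval (line) on the horizontal axis (log2, arsenite normal minus control non-tumour) for 16 metal, arsenic and methylation genes in rows. Mt1 and Mt2 have the widest intervals, and As3mt, Dnmt3a and Dnmt3b lie across 0. Of the 16 genes, Dnmt1 and Tdg have an interval that lies wholly below 0, before adjustment over all genes.

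Imprinted genes are expressed from one parental copy. Of 15 tested, 0 were called, 2 were higher (13.3%, against 5.38% of all genes) and 4 lower (26.7%, against 8.55%) without overlap, and the median was 0.02. Meg3 and Mirg, the higher genes, are non-coding RNAs of one cluster on chromosome 12. Meg3 read 0.44, 1.39 and 1.27 against -0.76, -0.15 and -0.29, a difference of 1.44 ± 0.54 (limma adjusted p 0.579). Mirg differed by 0.80 ± 0.37, but it was well above background on only 1 control array and was tested only through the group where it is high. The arsenite non-tumour arrays read 1.36, -1.06 and -0.20 for Meg3, which spans both groups. Mest had its spot in patches on all 3 arsenite normal arrays. The lower genes were Zrsr1 (-0.61 ± 0.19), the growth restrainer Cdkn1c (-0.55 ± 0.18), Mest (-0.45 ± 0.10) and Grb10 (-0.44 ± 0.34). The imprinted gene H19 was not well above background on any array compared and was not tested.

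Of 11 genes of antigen presentation, 0 were called, 3 were lower (27.3%, against 8.55% of all genes) and 1 higher (9.09%, against 5.38%) without overlap, 9 had a difference below 0 and the median was -0.09. The class II genes Cd74 (-0.46 ± 0.21), H2-Ab1 (-0.47 ± 0.20) and H2-Eb1 (-0.45 ± 0.24) were all lower without overlap, each with its spot in a patch on 1 arsenite normal array. Of 18 acute phase genes, 0 were called, 3 were lower (16.7%, against 8.55%) and 0 higher without overlap, 16 had a difference below 0 and the median was -0.22. Lbp, which binds bacterial lipopolysaccharide, read 3.68, 3.87 and 3.63 against 4.88, 4.34 and 3.99, a difference of -0.67 ± 0.21. Of 40 interferon-induced genes, 0 were called, 3 were higher (7.5%, against 5.38%) and 0 lower without overlap, 31 had a difference above 0 and the median was 0.16. Oasl1 led them at 0.75 ± 0.39.

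Summed levels of cell type markers give the cells that could move with these differences. Endothelial markers, 23 tested of 27 with a probe, summed to 7.70 to 7.82 in arsenite normal liver against 7.84 to 7.87 in control liver, without overlap. Of the 23, 3 were lower without overlap (13%, against 8.55% of all genes), and 8 had a difference above 0. Their median difference of -0.05 was -0.00039 without probes in bright patches. T and NK cell markers, 12 tested of 24, summed to 5.83 to 6.26 against 5.65 to 5.77 without overlap, but the sum is mostly the Cd4 probe, at 5.87, 5.62 and 5.45 against 5.29, 5.23 and 5.40. Of the 12, Cd4 and Nkg7 were higher without overlap (16.7%, against 5.38% of all genes) and 0 were lower, and 3 had a difference below 0. Dendritic cell markers, 4 tested of 12, summed to 7.54 to 7.63 against 7.47 to 7.50, and that sum is nearly all Siglech, at 7.55, 7.62 and 7.53 against 7.49, 7.47 and 7.47. Macrophage markers overlapped, at 7.76 to 8.06 against 7.74 to 8.31, as did B cell and plasma cell markers, at 7.02 to 7.49 against 6.94 to 7.47. Stellate cell and fibroblast markers (7.91 to 8.09 against 7.89 to 8.23) and bile duct markers (6.03 to 6.24 against 6.12 to 6.23) overlapped too. Red blood cell markers stood at 9.55 to 10.0 against 9.06 to 9.72. The part of these cells in the differences above was not tested.

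Genes that differ between male and female liver depend on the pattern of growth hormone release. Of 19 male-biased genes tested, 0 were called and 0 separated the groups, 18 had a difference above 0 and the median was 0.17. Hsd3b5, a male-biased steroid enzyme, read 7.56, 7.24 and 7.66 in arsenite normal liver and 5.45, 7.35 and 7.87 in control liver, so only control array 1 stood apart, and the difference of 0.60 ± 0.74 became -0.12 without it. Of 11 female-biased genes tested, 0 were called, 3 were lower without overlap (Fmo2, Cyp4a10 and Prom1; 27.3%, against 8.55% of all genes) and 0 higher, and the median was -0.51.

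Of 32 genes of the unfolded protein and ATF4 responses, 0 were called, 3 were higher without overlap (9.38%, against 5.38% of all genes) and 0 lower, 26 had a difference above 0 and the median was 0.17. Sdf2l1, a chaperone partner of the endoplasmic reticulum, read 2.65, 3.13 and 2.74 against 1.67, 2.61 and 2.47 (0.59 ± 0.28), while the ATF4 target Chac1 read 1.68, 0.94 and 0.50 against 1.06, 1.90 and 3.11 (-0.98 ± 0.53). Of 35 NRF2 and glutathione genes, 0 were called and 3 were lower without overlap (8.57%, against 8.55%), led by the glutathione transferase Gsta2 (-0.36 ± 0.12), and 0 were higher. Of 22 periportal genes, 0 were called, and 1 was higher (4.55%) and 2 lower (9.09%) without overlap. Of 22 pericentral genes, 0 were called, and 2 were higher (9.09%) and 1 lower (4.55%) without overlap. Over all genes these shares were 5.38% higher and 8.55% lower. The cell adhesion gene Cdh1 (1.24 ± 0.72) and the glucose-releasing enzyme G6pc (-0.79 ± 0.47) were the periportal extremes, both with overlapping arrays.

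The difference in the clock gene Dbp rests on 1 array. It read 5.01, 5.67 and 5.43 in arsenite normal liver and 5.85, 0.64 and 5.37 in control liver, and the arsenite non-tumour arrays read 2.27, 2.81 and 3.33. The difference of 1.42 ± 1.16 became -0.24 without control array 2. Of 20 clock genes tested, 0 were called, 1 was higher (5%, against 5.38% of all genes) and 0 lower without overlap. Nr1d1, a clock repressor, differed by 0.76 ± 0.44, and it too was lowest on control array 2 (0.78).

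Urea cycle and amino acid genes, oxidative phosphorylation and ribosomal proteins were close to level. All 40, 42 and 43 tested members had intervals within -1 to 1, with medians of -0.01, -0.04 and -0.00, and 0 of each were called. Without overlap, 6 urea cycle and amino acid genes were lower (15%, against 8.55% of all genes) and 0 higher.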

How the data were processed

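Cy3-labelled RNA was hybridised to 1-colour Agilent mouse arrays, 1 sample an array. The deposited scanner files hold spot intensity from Agilent Feature Extraction 10.7.3.1 per the file headers, and the submitters' processing notes name version 12.0.3.1. The deposited value table holds, as a ratio, each spot's processed signal over its array's 75th percentile of all spots, found by comparison with the scanner intensity. Here, each array's deposited processed intensity was divided by its own 75th percentile (59305 spots, controls left out), turned to log2 and averaged per probe without outlier spots. Of 55681 probes, 22200 were tested, and the brightest stood for a gene (16817 genes, 4057 with several probes). Probes were named through RefSeq accessions (27229), symbols (3586) or synonyms (565), otherwise as in the files (24301), and probe positions are on mm9. limma 3.58.1 (R 4.3.3) was fitted to the 9 arrays outside tumours with a mean per group, 2-sided, with Benjamini-Hochberg adjustment over all genes. Tumours were left out of the fit because of their spread. On simulated data of this comparison with 16817 genes, it called 76 of 100 genes shifted by 1 log2 unit and 92 of 100 shifted by 2, with 15 false calls. The simulated noise was normal, independent between arrays and without bright patches, so these rates need not hold for the real arrays. The number of arrays limits the precision.

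The comparison, its gene lists and rules were chosen with earlier results of these data known. The rule for named genes took the 20 largest non-overlapping differences and the 10 smallest p-values in each direction, the extremes of each list, and a set of arsenic, methylation and liver genes. Other list members were picked after their values were seen (Onecut1, Ghr, Stat5b, Zfp36, Gadd45a, Junb, Btg2, Slc25a20, Etfdh, Foxa2, Ahcy, Ezh2, Cdkn1c, Mest, Mirg, Grb10, Ccnd1, Cdc20, Rrm2, Cdca8, Insig1, Lbp, H2-Eb1, Klf6, Acaa1b, Acadl, Ehhadh, Pex11a and Prom1). Promoters were read from a RefSeq table by symbol. Some genes are not reported here. The alternatives are given at the end.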

Additional observations from a re-analysis of the deposited data

How the results depend on the processing

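limma's count of called genes stayed at 0 in the fit of all 12 arrays, under quantile, median and detected-probe scaling, normexp, the deposited value table, both filters, the mean of a gene's probes, without probes in bright patches (880 genes at an unadjusted p under 0.05), and with the label number as a replicate block in the 6 arrays, where 1205 genes had one. Same-numbered arrays deviated from their group means with correlations of -0.14, -0.14 and 0.05, against -0.08 to 0.18 for the other pairs. With 3 arrays a group, these values cannot settle whether the numbers pair the samples. Unadjusted counts were 869 under median scaling and 2594 with array weights. The count of calls was 2 in the fit of the 6 arrays (Dio1 and a probe without a gene name), 2 with trended and robust eBayes (the same probe among them) and 8 with array weights. Leaving out 1 array gave 0 to 11 calls: 5 without arsenite normal replicate 2, 11 without arsenite normal replicate 3 and 0 without any other. Of these 16 calls, 15 were higher and 15 lay in a bright patch of an arsenite normal array. A slide block could not be fitted, because the arsenite normal arrays have a slide of their own, and was not run. Of the named differences, Dbp turned to -0.24 without control non-tumour replicate 2 (-0.24 to 2.36 over arrays left out) and Hsd3b5 to -0.12 without control non-tumour replicate 1 (-0.12 to 1.09). Dnmt3a turned positive under quantile scaling (0.0017), detected-probe scaling (0.014) and normexp (0.015), and ran from -0.27 to 0.14 when 1 array was left out. Dnmt3b did so under quantile scaling (0.014), detected-probe scaling (0.016), normexp (0.0072) and the mean of its probes (0.099), and ran from -0.37 to 0.42 when 1 array was left out. Mki67 turned to -0.065 under quantile scaling, -0.030 under median scaling and -0.042 with normexp, and ran from -0.24 to 0.18 when 1 array was left out. Of the list medians, 57 moved by more than the spread between replicates, over 17 lists, and 10 of these turned sign. Imprinted genes went from 0.02 to -0.13 with array weights, -0.08 without control non-tumour replicate 1 and -0.06 without control non-tumour replicate 3. Metal and arsenic genes went from -0.05 to 0.0059 and cell cycle genes from 0.09 to -0.00068 without probes in bright patches. The growth hormone list was at -0.0067 without control non-tumour replicate 2, lipogenesis at 0.028 with array weights, female-biased genes at -0.27 to -0.71, and fatty acid oxidation at -0.20 to -0.13. The cause of these changes was not tested. Array weights brought Epha2, Chst13, Fbxw27, C2cd4d and Serpina7 past the threshold. Spots near background limit the low genes.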
